A study of Mus musculus with 4 samples.

Results

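The collagens are the proteins of the extracellular matrix built around a triple helix of 3 chains, and each chain has a gene of its own. All gene symbols made of Col, a number, the letter a and a number were taken as collagen chains, which gave 44 of the 32289 features of the expression matrices. They were followed across the cell classes of mouse lung tumours, with the question of which cells carry each chain and whether the treatment groups differ in it.

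The tumours came from mice whose label gives engineered alleles that include p53frt, Rosa-FSF-CreERT2 and Hnf4aflox, the same for all 4 libraries. Tumours were started by delivering an adenovirus with mSPC-FlpO, the Flp recombinase under the mouse surfactant protein C promoter of alveolar type 2 cells, to the lung. Flp acts on the p53 allele and turns on the CreERT2 gene in the cells it reaches, and CreERT2 acts on the floxed Hnf4a allele once tamoxifen is given, so the design aims the deletion at tumour cells, not at stroma. Injections of tamoxifen or vehicle were made 10 weeks after tumour start, and cells were collected 2 weeks later. The labels name the vehicle as ethanol in one field and as corn oil in another. The titles abbreviate the genotype differently for the vehicle and the tamoxifen libraries, although the genotype label is one for all 4. Each suspension was sequenced before and after magnetic depletion of CD45-positive (blood) and CD31-positive (endothelial) cells, which gave 4 droplet libraries. Values are listed below with the vehicle pair first, then the tamoxifen pair, and within each pair the undepleted portion precedes the depleted one. There was 1 library per group, the number of mice behind a suspension is not given in the labels, and the 2 portions of a suspension are not replicates. No statistical test was therefore possible. Differences are described by a rule of size, at least 2-fold, and the 95% intervals in parentheses cover counting error only.

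Of the deposited barcodes, 6111 to 7358 per library were kept as cells (27471 in all), with a median of 9302 to 17733 unique molecules (UMIs) per cell. Between 10 and 18 barcodes were shared by each pair of libraries, at most 0.275% of a library. Hnf4a, the gene named for deletion, was read at 44.3 (41.7 to 46.9), 47.5 (46.3 to 48.8), 81.6 (78.2 to 85.0) and 79.7 (78.1 to 81.4) UMIs per 1000000 UMIs (CPM) in the epithelial-like cells. It was thus higher in the libraries labelled tamoxifen, against the direction of a deletion. The kit counts the 3′ ends of transcripts, the labels do not say which exons are floxed, and a tag outside the deleted part checks nothing, so the treatment is given below as each library's label.

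Collagens fall into families by how they assemble. Fibrillar chains (types I, II, III, V, XI, XXIV and XXVII) form the rope-like fibrils of connective tissue, and fibril-associated chains decorate their surface. Type IV chains form the sheet-like network of basement membranes under epithelium and endothelium. Its 6 chains combine into 3 trimers, and in the adult lung the trimer of the α3, α4 and α5 chains lies in the alveolar basement membrane. Type VI forms beaded filaments around cells, type VIII and X form short-chain networks, type VII anchors the epidermal basement membrane, types XV and XVIII (multiplexins) sit at basement membranes and carry glycosaminoglycans, and types XIII, XVII, XXIII and XXV span the cell membrane. In the lung, fibroblasts are known for fibrillar collagen, endothelial cells and pericytes for type IV, and alveolar type 1 cells, the flat cells of gas exchange, share a fused basement membrane with the capillaries.

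The type IV genes lie in 3 head-to-head pairs, and the first of these carries the clearest epithelial pattern of the family. In GRCm38, the build named mm10 in the submitters' processing notes, the GENCODE annotation places Col4a4 on chromosome 1 at chr1:82448423-82586849 on the minus strand and Col4a3 at chr1:82586921-82722059 on the plus strand. Their annotated starts are 71 bases apart. Col4a1 (chr8:11198423-11312826, minus strand) and Col4a2 (chr8:11312805-11449287, plus strand) overlap by 22 bases at their starts. Col4a6 (chrX:141165403-141474076, minus strand) and Col4a5 (chrX:141475385-141689234, plus strand) are 1308 bases apart. The sequences shared by the first 2 pairs are shown because each lies between 2 chains whose levels are compared below. They are the intergenic bases chr1:82586850-82586920 and the overlap of both genes' first exons at chr8:11312805-11312826, both on the plus strand, from RefSeq promoter windows of GRCm38.p6, with a GC box (GGGCGG) in capitals.

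Between Col4a4 and Col4a3: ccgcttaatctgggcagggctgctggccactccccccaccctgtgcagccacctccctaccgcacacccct

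Shared by Col4a1 and Col4a2: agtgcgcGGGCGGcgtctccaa

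The first sequence is 69% G or C and the second 72.7%. Promoter windows of 250 bases before to 50 after the annotated start were found for 35 of the 44 chains. Searched on both strands, GGGCGG was present in 22 of these 35 windows against 35.7% of all 32851 mouse windows, CCAAT in 13 against 37.4%, and TATAAA in 5 against 13.6%. The 5 with TATAAA were Col3a1, Col10a1, Col11a2, Col13a1 and Col17a1. The 3 motifs do not overlap in their letters, and none was found in the 71 bases between Col4a4 and Col4a3.

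Cells were clustered without the collagen genes and named from marker lists as fibroblast-like (195 cells, 31 to 65 per library), mural-like (pericytes and smooth muscle, 68 cells), mesothelial-like (32 cells, 28 of them in the vehicle library after depletion), endothelial-like (565 cells) or epithelial-like (13625 cells), and 8 immune classes were used as well. Fibroblast, endothelial and epithelial values are means over 4 libraries. Mural values are means over the 2 libraries after depletion, which held 26 and 20 mural-like cells against 6 and 16 before it, and the mesothelial value is from 1 library. Fibroblast-like cells carried mural markers at levels near those of their own. Their 10 fibroblast markers summed to 4225, 3525, 3832 and 4754 CPM and the 10 mural markers to 2905, 5497, 2442 and 3108, above the fibroblast list in the depleted vehicle library, with the pericyte marker Rgs5 at 0 in both libraries before depletion. In mural-like cells the mural list summed to 17580 to 19120 and the fibroblast list to 158 to 362, with Lum and Gpc3 at 0. In endothelial-like cells the fibroblast list summed to 17.5 to 42.4 and in epithelial-like cells to 192 to 216. Markers of alveolar type 2 cells, the surfactant-making epithelium, summed to 268 to 317 CPM in fibroblast-like cells before depletion and 1760 to 1788 after it, and to 362 to 388 and 1890 to 1922 in endothelial-like cells. The part of these other transcripts in the collagen values was not tested. Another 2461 cells were left unnamed, among them 218 stromal cells, and these carried 103102 collagen UMIs.

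Collagen made up a larger share of the UMIs in stromal cells than in epithelium. It took 1.30 to 1.69% of all UMIs in fibroblast-like cells, 1.39 to 1.43% in mural-like, 0.903% in mesothelial-like, 0.503 to 0.633% in endothelial-like and 0.0692 to 0.0933% in epithelial-like cells, and 0.00193 to 0.0218% in the immune classes. Because epithelial-like cells were so many, they still held 23.5%, 60.8%, 38.0% and 72.9% of each library's collagen UMIs. Fibroblast-like cells held 20.98%, 7.42%, 13.4% and 3.80%, and endothelial-like cells 13.3%, 5.54%, 12.2% and 3.24%. Immune-like cells were 80.8% and 78.1% of the cells before depletion and held 4.53% and 5.00% of the collagen UMIs. These shares follow from how many cells of each class were loaded as well as from the level per cell.

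Of the 44 chains, 30 reached a mean of 10 CPM in at least 1 class, against 41.3% of all features. In 12 of these 30 a single class exceeded the next by at least 2-fold, where 25.4% of the 13346 features at 10 CPM did so. With the libraries before depletion alone, where mural- and mesothelial-like cells were too few to enter as classes, the count was 25, of which 9 kept the class given here. For the 12 chains, the class was fibroblast-like for 5 (Col6a2, Col7a1, Col12a1, Col13a1 and Col28a1; 1.85% of the 13346 features), mural-like for 3 (Col5a3, Col15a1 and Col18a1; 2.11%), epithelial-like for 2 (Col4a3 and Col4a4; 4.63%) and dendritic cell-like for 2 (Col6a6 and Col17a1; 1.28%). Col6a2 stood 2.24-fold above the next class and fell to between 1.46 and 1.86 under 4 alternatives, the lowest with the tamoxifen libraries alone, and Col12a1 stood 2.65-fold above and fell to 1.55 without doublet removal and 1.98 with a stricter doublet score. Taking fibroblast-, mural- and mesothelial-like cells together as stroma, the highest stromal class stood at least 2-fold above every other class for 23 of the 30 chains, against 10.9% of the 13346. All 9 fibrillar chains that reached 10 CPM were stromal by this rule, as were both multiplexins and all 3 fibril-associated chains, but only 2 of 6 type IV chains. The other 14 chains stayed below 10 CPM in every class mean. They were Col2a1, Col6a4, Col6a5, Col8a2, Col9a1, Col9a2, Col9a3, Col10a1, Col11a2, Col19a1, Col20a1, Col22a1, Col25a1 and Col26a1, several of them chains of cartilage, and the highest class mean among them was 9.36, of Col10a1 in neutrophil-like cells. The mural mean of Col10a1, 4.44 CPM, leaves out the libraries before depletion, where the few mural-like cells had 869 and 246 CPM.

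**Figure D1:**
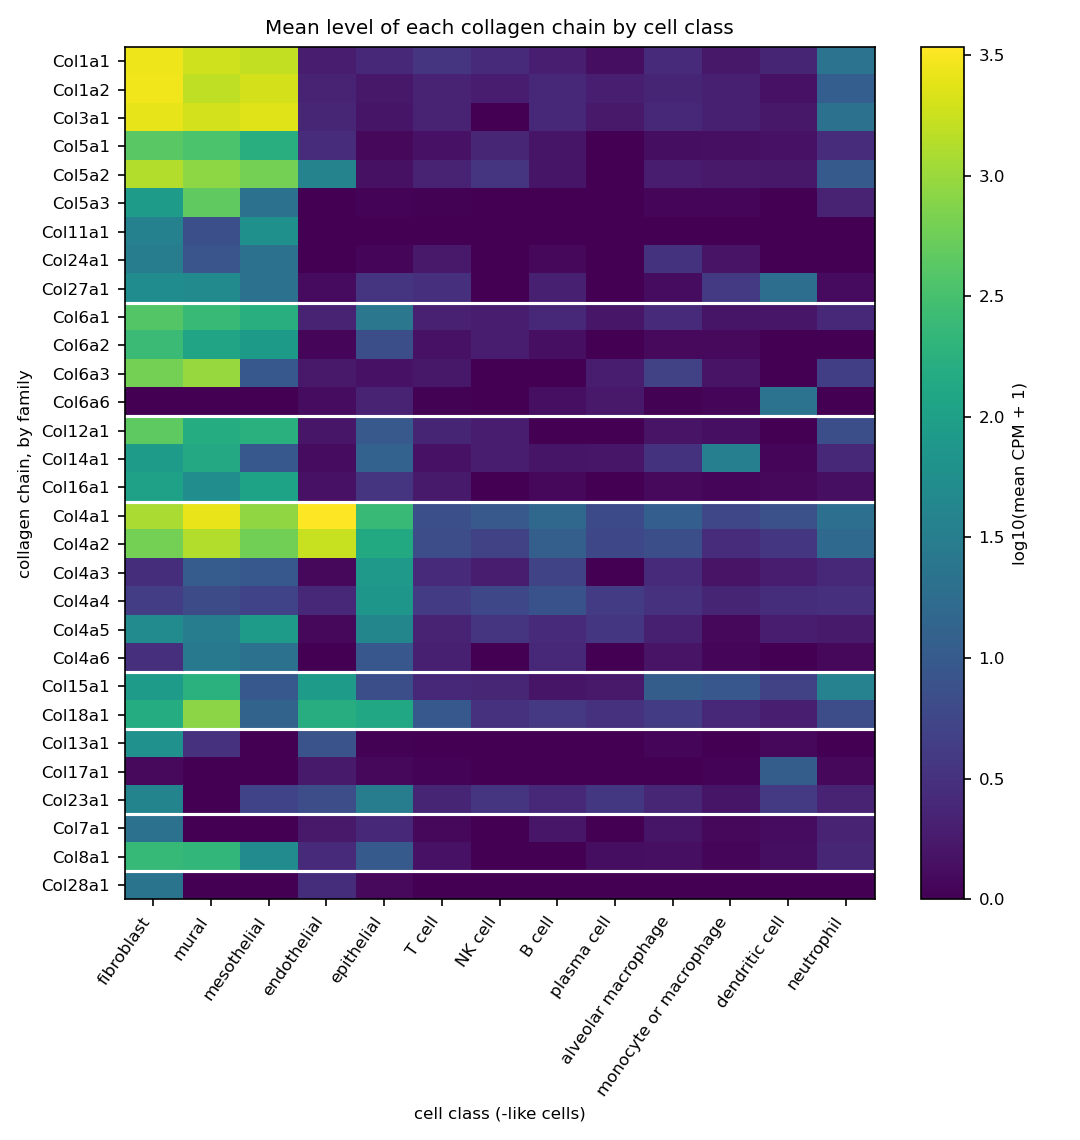
Mean level of each collagen chain (rows, grouped by family) in each cell class (columns), as colour on a log10 scale of CPM plus 1. Fibrillar chains are bright in the 3 stromal columns and dark in the endothelial and epithelial columns, Col4a1 and Col4a2 are bright in every stromal column and brightest in endothelial-like cells, and Col4a3 and Col4a4 are brightest in epithelial-like cells.

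The fibrillar chains separated stroma from all other cells most sharply. Col1a1 and Col1a2, the chains of type I collagen, were read at 3522 (3412 to 3635), 2819 (2695 to 2948), 2628 (2505 to 2755) and 2129 (1987 to 2279) CPM and at 3494, 2891, 2562 and 2596 CPM in fibroblast-like cells. Endothelial-like cells had 1 or 2 Col1a1 UMIs per library, 0.537 to 1.27 CPM, and epithelial-like cells 1.13 to 1.95 CPM. T cell-like cells, which should lack the gene, had 2.94 (1.90 to 4.34) and 2.15 (1.08 to 3.85) CPM before depletion, so the endothelial and epithelial readings lay at or below that level. Neutrophil-like cells had 28.3 and 14.1 CPM, of which 1 cell gave 67.3% of the UMIs. With every cell thinned to 2000 UMIs, a Col1a1 UMI was found in 96.1% (86.5 to 99.5), 94.9% (85.8 to 98.9), 90.3% (74.2 to 98.0) and 87.5% (73.2 to 95.8) of fibroblast-like cells, with exact binomial intervals. The share was 0.112 to 0.479% in epithelial-like and 0.444 to 0.595% in T cell-like cells. The ratio of Col1a1 to Col1a2 UMIs was 0.82 to 1.03 in fibroblast-like cells, where tags of a 3′ kit count molecules and need no length correction.

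Type III and V chains followed the same classes, and one type V chain was highest in mural-like cells. Col3a1, the chain of type III fibrils in soft tissue, averaged 2535 CPM in fibroblast-like, 1983 in mural-like and 2292 in mesothelial-like cells, against 1.39 in endothelial-like and 0.606 in epithelial-like cells. Col5a1 and Col5a2, whose trimer starts fibrils and limits their width, averaged 428 and 1322 CPM in fibroblast-like and 340 and 862 in mural-like cells. Col5a2 was the one fibrillar chain with a clear endothelial level, 36.9 CPM. Col5a3, the remaining type V chain, was higher in mural-like cells. It was read there at 869 (674 to 1104), 471 (385 to 569), 473 (395 to 562) and 451 (352 to 568) CPM, and in fibroblast-like cells at 71.9, 127, 83.8 and 58.9 CPM. The 2 sets of 4 libraries did not overlap, and mural-like cells averaged 461 CPM after depletion against 85.3 in fibroblast-like cells over all libraries. Among low fibrillar chains, Col11a1 averaged 34.8 CPM in fibroblast-like and 57.8 in mesothelial-like cells, Col24a1 30.0 and 20.6, and Col27a1 51.6 and 20.6. Mesothelial-like cells gave 14 Col11a1 UMIs in 5 cells, 9 of them from 1 cell, and 5 Col24a1 UMIs in 2 cells, 4 of them from 1. Pooled over libraries without the highest cell, Col11a1 was 15.9 CPM in mesothelial-like and 27.9 in fibroblast-like cells.

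The type IV chains divided into an endothelial and mural pair, an epithelial pair and a weaker X-linked pair. Col4a1, with Col4a2 the chain of nearly all basement membranes, was read at 3998 (3908 to 4090), 3309 (3215 to 3405), 3241 (3153 to 3331) and 3085 (2969 to 3205) CPM in endothelial-like cells. In mural-like cells after depletion it was 2727 (2515 to 2951) and 2520 (2278 to 2781), in fibroblast-like cells 1169, 1295, 1346 and 1069, and in epithelial-like cells 233, 205, 274 and 242. The order endothelial, mural, fibroblast, epithelial held within each of the 4 libraries, including those before depletion, where the few mural-like cells had 3478 (3074 to 3920) and 2477 (2294 to 2671). Endothelial-like cells were less than 2-fold above mural-like cells, so Col4a1 and Col4a2 were not assigned to a single class. Col4a2 ran in parallel at 1741, 1322, 617 and 137 CPM on average in these classes. Their UMI ratio was 1.86 to 2.09 in endothelial-like, 1.86 to 2.10 in fibroblast-like and 1.65 to 1.83 in epithelial-like cells, so the proportion of the pair differed little while its level differed by more than 10-fold.

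Col4a3 and Col4a4, whose loss in humans causes Alport syndrome of the kidney, were epithelial in all 4 libraries. Col4a3 was read at 81.2 (77.7 to 84.7), 66.3 (64.8 to 67.8), 94.99 (91.4 to 98.7) and 82.5 (80.9 to 84.2) CPM in epithelial-like cells, and Col4a4 at 78.9, 59.3, 88.3 and 68.0 CPM. The mean of Col4a3 was 8.53-fold above the next class, mural-like cells at 9.52 CPM, and that of Col4a4 was 10.7-fold above the next, B cell-like cells. Fibroblast-like cells averaged 1.89 and 3.40 CPM and endothelial-like cells 0.177 and 1.44 CPM for the 2 chains. Col4a5, which completes the α3α4α5 trimer, was not epithelial alone. It averaged 40.5 CPM in epithelial-like, 48.9 in fibroblast-like, 29.8 in mural-like and 86.7 in mesothelial-like cells, and 0.177 in endothelial-like cells. Col4a6, its partner in the α5α6 trimer of smooth muscle and some epithelia, averaged 25.7 CPM in mural-like, 20.6 in mesothelial-like and 8.18 in epithelial-like cells.

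Epithelial-like cells split into 21 states, and the 2 states with alveolar type 1 markers had the highest Col4a3 and Col4a4 of all. Pooled over libraries, the Rtkn2-led state (594 cells) had 552 (536 to 568) CPM of Col4a3 and 432 (418 to 446) of Col4a4. The Cyp2b10-led state (687 cells) had 235 and 247. The median state had 56.3 and 53.0 CPM, and the lowest were the Agr2-led state for Col4a3 (17.1) and the Scgb1a1-led state for Col4a4 (10.9). Every one of the 21 states was therefore above the fibroblast-like and endothelial-like means for Col4a3 and Col4a4, so the epithelial level does not come from type 1-like cells alone. By library, type 1-like cells had 384 (358 to 411), 333 (319 to 348), 523 (491 to 557) and 408 (394 to 423) CPM of Col4a3, and the other epithelial-like cells 53.9, 51.8, 63.8 and 60.5. For Col4a4 the type 1-like values were 380, 307, 457 and 321, and the others 51.9, 45.8, 61.4 and 50.9. The 2 sets of libraries were far from overlapping for either chain.

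**Figure D2:**
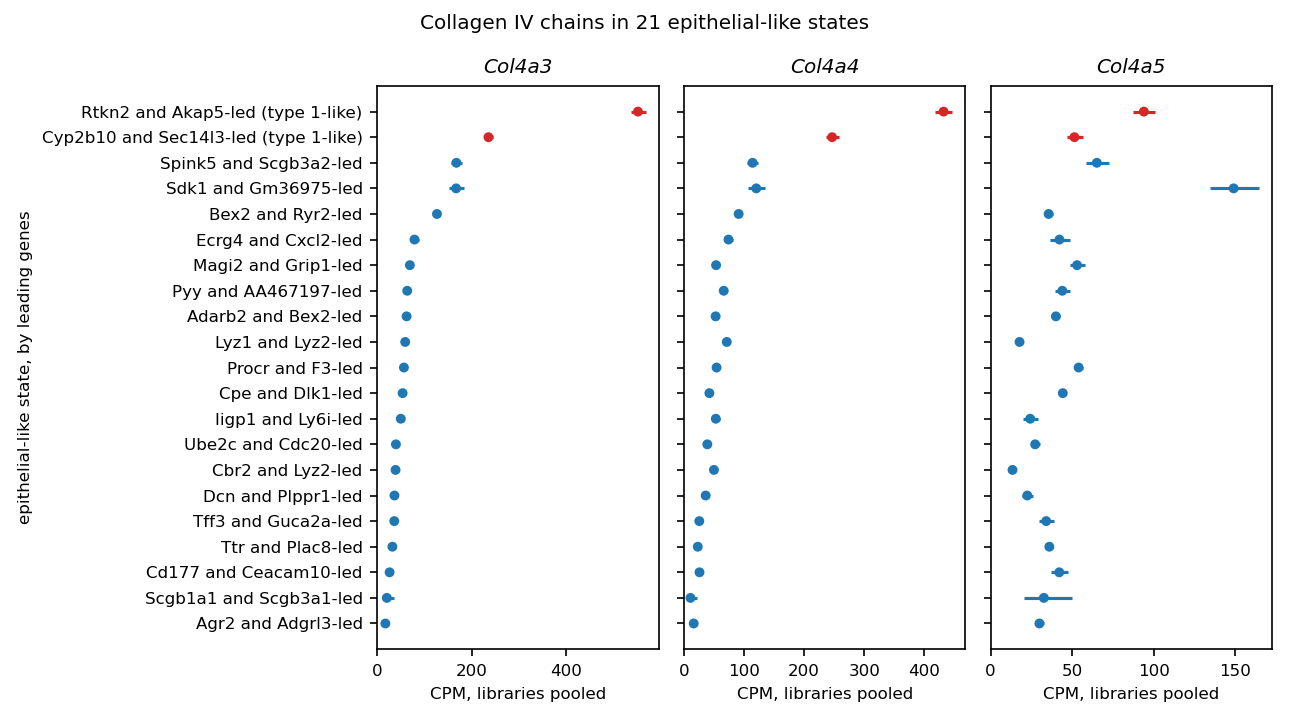
Level of 3 type IV chains in the 21 epithelial-like states, named by leading genes, in CPM with the 4 libraries pooled, 1 chain per panel, as points with 95% Poisson intervals. Col4a3 and Col4a4 peak in the 2 alveolar type 1-like states at 235 to 552 CPM, while Col4a5 peaks in the Sdk1-led state.

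Of the 44 chains, 3 were at least 2-fold higher in type 1-like than in other epithelial-like cells in every library. Of the 9964 features compared, 2.52% were. These were Col4a3 (log2 ratio 2.66 to 3.02), Col4a4 (2.63 to 2.88) and Col12a1, a fibril-associated chain (1.51 to 2.32). Col12a1 lost the call when the states were drawn at another clustering resolution (smallest log2 ratio 0.66 and 0.41), while Col4a3 and Col4a4 stayed at 2.42 or above. Col12a1 was nevertheless low, 23.2, 28.0, 31.3 and 23.9 CPM, against 459 CPM in fibroblast-like cells. Col4a5 in type 1-like cells was 60.1, 69.1, 94.0 and 73.0 CPM and highest among the states in the Sdk1-led one, at 149. Col18a1 went the other way, with a log2 ratio of -2.46 to -3.42. Thinned to 2000 UMIs, a Col4a3 UMI was found in 35.8% (26.8 to 45.5), 38.1% (33.7 to 42.7), 59.8% (49.4 to 69.6) and 47.1% (43.0 to 51.2) of type 1-like cells, in 9.63 to 11.3% of the other epithelial-like cells and in 0 to 0.178% of T cell-like cells. Without thinning the type 1-like shares were 76.9 to 87.3%, so most of these cells carried the gene at full depth.

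The chains of one trimer were not equally abundant in type 1-like cells. The UMI ratio of Col4a3 to Col4a4 there was 1.01, 1.09, 1.14 and 1.27, while that of Col4a3 to Col4a5 was 6.39, 4.82, 5.57 and 5.59. Across the 21 states Col4a3 and Col4a4 had a Pearson correlation of 0.969, Col4a1 and Col4a2 of 0.92, and Col4a5 and Col4a6 of 0.651. These states share libraries and depth, and the coefficients only describe them. Of 11994 genes ranked by correlation with the mean of Col4a3 and Col4a4 over the 21 states, the 5 most alike were Gm1968 (0.913), Celf2 (0.896), 9030404E10Rik (0.874), Rassf8 (0.871) and Ptpn1 (0.871). All 5 were highest in the Rtkn2-led state, which follows in part from ranking them by a profile that peaks there. The other type IV chains ranked 166 (Col4a2, 0.680), 460 (Col4a5, 0.582), 570 (Col4a1, 0.557) and 5283 (Col4a6, 0.080).

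Type VI collagen was a stromal product whose long chain was nearly missing from epithelium. Col6a1 and Col6a2, the short chains of the trimer, averaged 382 and 255 CPM in fibroblast-like cells, and Col6a3, the long chain, 615. In mural-like cells they averaged 248, 114 and 971 CPM. Col6a2 was read at 282 (252 to 315), 292 (253 to 336), 197 (164 to 234) and 249 (202 to 303) CPM in fibroblast-like cells. Epithelial-like cells averaged 24.1, 6.06 and 0.475 CPM for Col6a1, Col6a2 and Col6a3. The ratio of Col6a2 to Col6a3 UMIs was accordingly 0.37 to 0.47 in fibroblast-like and 6.2 to 19.1 in epithelial-like cells. Col6a6, one of the chains that can take the place of Col6a3, was highest in dendritic cell-like cells, at 21.1 (16.3 to 26.9) and 21.8 (16.7 to 27.9) CPM in the 2 libraries before depletion. It came from one Siglech- and Grm8-led state of 140 cells, with 128 UMIs in 56 cells and 70.9 (59.2 to 84.3) CPM. Col17a1, the membrane-spanning collagen of hemidesmosomes, was highest in the same state, at 31.0 (23.4 to 40.3) CPM in 39 cells.

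The 3 of 9 fibril-associated chains and the 2 of 4 anchoring and short-chain chains that reached 10 CPM were stromal. Col12a1 was read at 490 (449 to 533), 483 (432 to 538), 485 (433 to 541) and 379 (321 to 446) CPM in fibroblast-like cells, and 154 on average in mural-like cells. Col16a1 averaged 103 CPM in fibroblast-like and 111 in mesothelial-like cells. Col14a1, which binds fibril surfaces, averaged 90.1 CPM in fibroblast-like and 133 in mural-like cells, with a further level in monocyte- or macrophage-like cells of 31.7 (29.7 to 33.9) and 32.6 (30.0 to 35.2). That macrophage level rested on an Ms4a7- and Ccl12-led state of 580 cells with 90.0 (84.0 to 96.2) CPM. Col8a1, a short-chain collagen of vessel walls, averaged 234 CPM in fibroblast-like and 220 in mural-like cells, against 8.88 in epithelial-like cells. Its partner Col8a2 was 38.5 to 167 times rarer in fibroblast-like cells. Col7a1 was a low fibroblast chain at 22.8, 20.4, 15.2 and 20.5 CPM on 8 to 25 UMIs per library, and Col28a1 likewise at 21.8, 29.1, 12.2 and 23.1.

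The multiplexins were led by mural-like cells. Col18a1, the source of the endostatin fragment, was read at 1039 (910 to 1181) and 616 (499 to 751) CPM in mural-like cells after depletion. It averaged 158 CPM in endothelial-like, 151 in fibroblast-like and 125 in epithelial-like cells, 3 classes that lay close together. Col15a1 was read at 164 (116 to 227) and 197 (134 to 279) CPM in mural-like cells after depletion, and averaged 86.1 in both fibroblast-like and endothelial-like cells. The 2-fold lead of Col15a1 over the next class held in 12 of 19 alternatives, and that of Col18a1 in 19 of 19. Col15a1 fell below another class, at folds of 0.579, 0.659 and 0.701, under 3 of them. These were a stricter doublet score, the collagens kept in the clustering, and the unnamed stromal cells counted as fibroblast-like. Among the membrane-spanning chains, Col13a1 was a fibroblast chain at 83.7 (67.5 to 103), 21.8 (12.2 to 36.0), 80.8 (60.5 to 106) and 56.4 (35.3 to 85.4) CPM, with one library well below the other 3. Col23a1 was shared by fibroblast-like (38.3 CPM) and epithelial-like cells (29.0 CPM).

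Within the stroma, sub-clusters held different sets of chains. The 4 fibroblast-like states were led by Mfap4 (89 cells), Zfp804a (58), Lum (25) and Ptx3 (23), and 2 mural-like states by Rgs5 (38) and by Ctnna3 and Myh11, smooth muscle myosin (30). Type I chains were high in all 4 fibroblast-like states, with Col1a1 between 2652 and 4444 CPM. Col13a1 was 107 CPM in the Mfap4-led state and 17.9, 24.6 and 0 in the Zfp804a-, Ptx3- and Lum-led states, and Col23a1 was likewise highest in the Mfap4-led state (59.5 against 12.8, 8.18 and 7.89). That state made up 39 of 55, 18 of 65, 16 of 31 and 16 of 44 fibroblast-like cells in the 4 libraries, so the class levels of these chains mix the states in different proportions. Col8a1 ran opposite, at 75.7 CPM in the Mfap4-led and 574 in the Zfp804a-led state. Col15a1 was 15.5 and 18.4 CPM in the Mfap4- and Lum-led states against 249 and 286 in the Zfp804a- and Ptx3-led ones. Col5a3 followed suit, at 27.2, 84.1, 154 and 401 CPM in the Mfap4-, Lum-, Zfp804a- and Ptx3-led states.

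**Figure D3:**
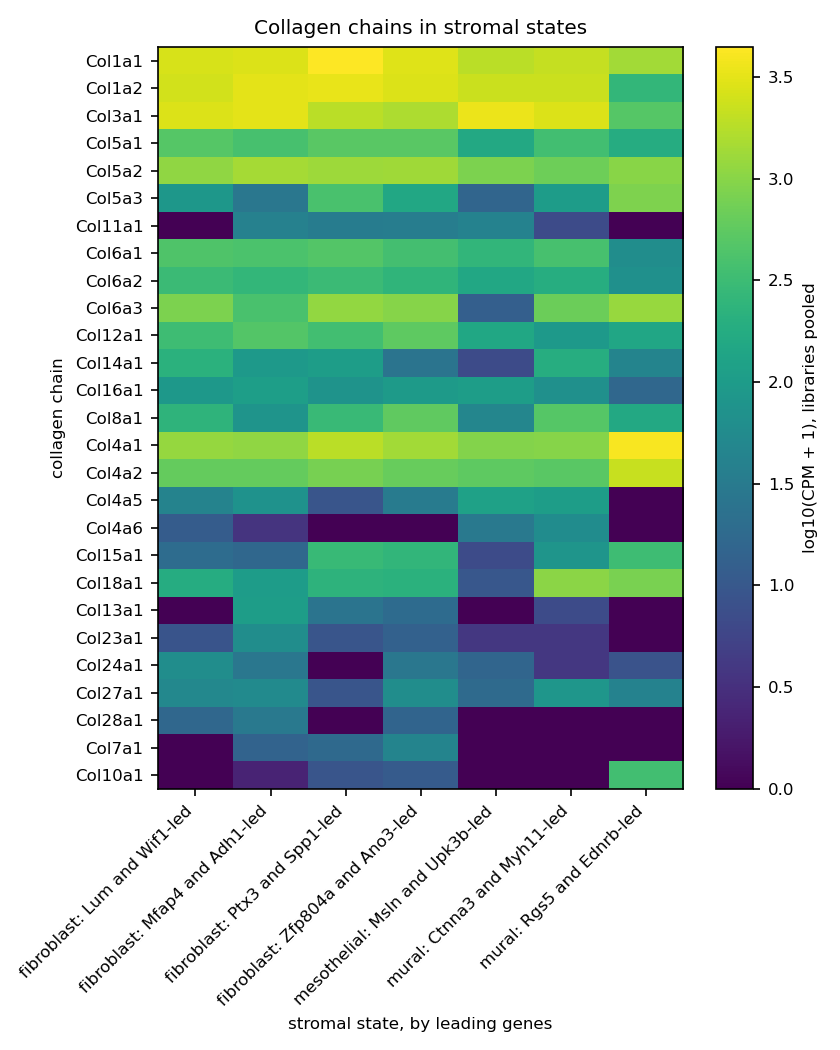
Level of the collagen chains (rows) in the stromal states named by leading genes (columns), as colour on a log10 scale of CPM plus 1 with the libraries pooled. The Rgs5-led mural column is dark for Col1a2 and Col3a1 and bright for Col4a1 and Col5a3, and the Mfap4-led column is the brightest for Col13a1 and Col23a1.

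The 2 mural-like states differed in type IV and fibrillar chains. The Rgs5-led state, pericyte-like by that marker, had 4138 CPM of Col4a1, 862 of Col5a3 and 321 of Col15a1, but 258 of Col1a2 and 490 of Col3a1. The Myh11-led state had 974, 103 and 79.4 CPM of the first 3 chains, and 2300 and 2820 of Col1a2 and Col3a1. Col4a5 and Col4a6 were 0 in the Rgs5-led state and 106 and 58.8 CPM in the Myh11-led state. The mural levels of type IV and fibrillar chains in the class means therefore mix 2 unlike profiles, and their mixture changes with the library. Col10a1, the short-chain collagen of growth plate cartilage, came from few cells. In mural-like cells 5 cells gave its 136 UMIs (186 CPM over all libraries), of which 1 cell gave 49.3%, all of them in the Rgs5-led state, at 347 (291 to 410) CPM. The UMIs by library were 67, 2, 67 and 0. The Zfp804a-led fibroblast-like state had 10.2 CPM, and in neutrophil-like cells 1 cell gave all 47 UMIs.

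Endothelial-like cells formed 8 states of at least 20 cells, all of which carried Col4a1, and 2 smaller ones of 19 and 18 cells that are not described. Col4a1 was highest in the Ccl21a-led state (111 cells) at 4923 CPM and in the Rsad2-led state at 4373, and 4058 in the artery-like Rbp7-led state. The Ccl21a-led state got no name from the marker lists. Its leading genes included Mmrn1, Esm1 and Angpt2, and also Abcc9 and Ednrb, which are among those of the Rgs5-led mural-like state. General capillary-like cells led by Hpgd had 1717 CPM, and the Nebl-led state 1034. The Nebl-led state had the highest Col5a2 (371 CPM) and Col18a1 (343). Col18a1 was 277 CPM in the Ccl21a-led and 19.2 in the Hpgd-led state, so the class mean of 158 hides a wide range. Among epithelial-like states, Col18a1 was highest in the Ecrg4-led (492 CPM) and Cd177-led (327) states and lowest in the type 1-like Cyp2b10-led state (7.55). Col23a1 and Col6a2 were highest in the Spink5- and Scgb3a2-led state (165 and 32.5 CPM), Col6a1 in the Lyz1-led state (94.6) and Col8a1 in the Procr-led state (37.8). A state of 37 cells led by the secretory genes Scgb1a1 and Scgb3a1 had 93.2 CPM of Col6a5 and 62.1 of Col8a2, which are below 10 CPM in every class mean. Likewise Col20a1 and Col11a2 reached 37.3 and 10.3 CPM in the Sdk1-led state.

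Of the 73 genes that make, partner, bind and break down collagen, 68 reached 10 CPM. Of these 33 were stromal by the 2-fold rule (48.5%, against 10.9% of the 13346 features at 10 CPM). The 33 include Lum and Dcn, which are also markers used to name the fibroblast-like cells. Their place in the count follows in part from the naming. A single class led 22 of the 68 genes (32.4%, against 25.4%), Lum among them. Of 18 hydroxylation, folding and glycosylation genes, all reached 10 CPM, 8 were stromal and 3 were led by 1 class. The latter were P4ha3, a prolyl hydroxylase subunit (fibroblast-like, 132 CPM), P3h4 (mesothelial-like, 178) and Colgalt2, a collagen galactosyltransferase (endothelial-like, 32.7). None of 7 export and transcription genes was stromal. Of 8 genes for propeptide cleavage 6 reached 10 CPM and 4 were stromal, among them Pcolce2, an enhancer of cleavage (fibroblast-like, 180 CPM). Adamts14, a procollagen protease, was instead led by NK cell-like cells at 370 CPM, and Tll1, a protease of the same step, by endothelial-like cells at 30.6. Of 7 cross-linking genes 6 reached 10 CPM and 4 were stromal, which were Lox, Loxl1, Loxl2 and Loxl3, the lysyl oxidases.

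Of 12 fibril and sheet partners 9 were stromal, 5 of them led by fibroblast-like cells (Lum, Fmod, Bgn, Ogn and Npnt) and 2 by mural-like cells. The highest of the 5 was Bgn, the proteoglycan biglycan, at 2918 CPM. The mural 2 were Postn (periostin, 1007 CPM) and Nid1 (nidogen, which links laminin to type IV collagen, 604 CPM). Of 11 collagen receptors 9 reached 10 CPM and 3 were stromal. Itga1, the integrin chain for type IV collagen, was led by mural-like cells (851 CPM), Mrc2, an endocytic receptor, by fibroblast-like (195), Itga2 by NK cell-like (673) and Adgrg6, which binds type IV, by dendritic cell-like cells (263). Of 10 breakdown genes 5 were stromal. Mmp9, a gelatinase, was led by neutrophil-like cells (1195 CPM), and Mmp2 (244) and the inhibitor Timp1 (5925) by mesothelial-like cells.

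Between the treatment labels, few collagens of fibroblast-like cells were at least 2-fold apart. Of 25 chains with enough UMIs, 1 was at least 2-fold higher in the library labelled tamoxifen both before and after depletion (0.294% of 8492 features were) and 0 were lower (0.447%). The chain was Col11a1, of minor fibrils, at 24.6 and 18.9 CPM in the vehicle and 54.9 and 41.0 in the tamoxifen libraries, on 13 to 36 UMIs. Its folds were 2.23 (1.32 to 3.82) before and 2.17 (0.978 to 4.90) after depletion. Without the cell with the most Col11a1 UMIs in each library the smaller log2 ratio became -0.13, and without doublet removal -0.31, so that call rests on few cells. With cells of at least 1000 genes only the pair before depletion had enough fibroblast-like cells (40 and 25), and 7 of 24 chains were apart in it, Col11a1 among them. Col1a1, at 3522 and 2819 CPM in vehicle and 2628 and 2129 in tamoxifen libraries, had folds of 0.746 (0.704 to 0.790) and 0.755 (0.696 to 0.820). Col3a1 had folds of 0.733 (0.688 to 0.781) before and 1.04 (0.958 to 1.12) after depletion. In the pair after depletion alone, Col11a1 and Col13a1 were at least 2-fold higher and Col5a3 lower, where 406 and 553 of 8842 features were higher and lower. The median log2 ratio of the 25 chains was -0.30 before and -0.16 after depletion, where that of all features was 0.01 and 0.01.

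Endothelial-like cells had 5 chains with enough UMIs, and 0 were apart in both pairs (0.233% of 8598 features were higher and 0.151% lower). Col4a1 had folds of 0.811 (0.782 to 0.840) and 0.932 (0.889 to 0.978). Col15a1 was lower in the pair before depletion only (1.67% of features were), 139 CPM against 63.2, a fold of 0.456 (0.359 to 0.577), and 76.4 against 66.4 after it, a fold of 0.869 (0.619 to 1.21). Mural-like cells could be compared only after depletion, with 26 and 20 cells. Of 19 chains, 3 were at least 2-fold higher (7.41% of 5803 features were) and 1 lower (9.48%), as read from few cells. Col6a1 was 115 CPM in the vehicle and 381 in the tamoxifen library, a fold of 3.30 (2.05 to 5.45), Col6a2 75.5 and 152, and Col4a5 8.88 and 50.8 on 2 and 8 UMIs. Col8a1 was 306 and 133 CPM, a fold of 0.435 (0.253 to 0.718), and this direction turned without doublet removal (log2 0.27) and with cells of at least 1000 genes (0.26).

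In epithelial-like cells Col8a1 stood apart between the labels. It was 1.84 (1.35 to 2.44) and 4.10 (3.74 to 4.48) CPM in the vehicle libraries and 16.9 (15.4 to 18.5) and 12.8 (12.1 to 13.4) in the libraries labelled tamoxifen, so the 2 vehicle values lay below both tamoxifen values. The folds were 9.17 (6.79 to 12.7) before and 3.11 (2.81 to 3.46) after depletion. It was the 1 of 10 chains at least 2-fold higher in both pairs, against 0.466% of 9015 features, and 0 were lower (1.03%). With a pseudocount of 10 CPM the smaller log2 ratio was 0.69 and the call was lost. Without doublet removal it was 1.28, but Col8a1 no longer met the minimum level in both pairs. Col15a1, below the level the rule requires, was 2.82 and 2.93 CPM in vehicle and 10.7 and 8.29 in tamoxifen libraries, folds of 3.78 (2.91 to 4.96) and 2.83 (2.5 to 3.21). Col23a1 was 24.6 and 17.8 CPM in vehicle and 35.1 and 38.4 in tamoxifen libraries, folds of 1.42 (1.29 to 1.58) and 2.16 (2.05 to 2.28). Col4a6 went the other way, 13.1 and 9.36 against 5.13 and 5.15 CPM, with folds of 0.391 (0.319 to 0.478) and 0.551 (0.497 to 0.609). The epithelial pair Col4a3 and Col4a4 moved little, with folds of 1.17 and 1.24 and of 1.12 and 1.15.

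**Figure D4:**
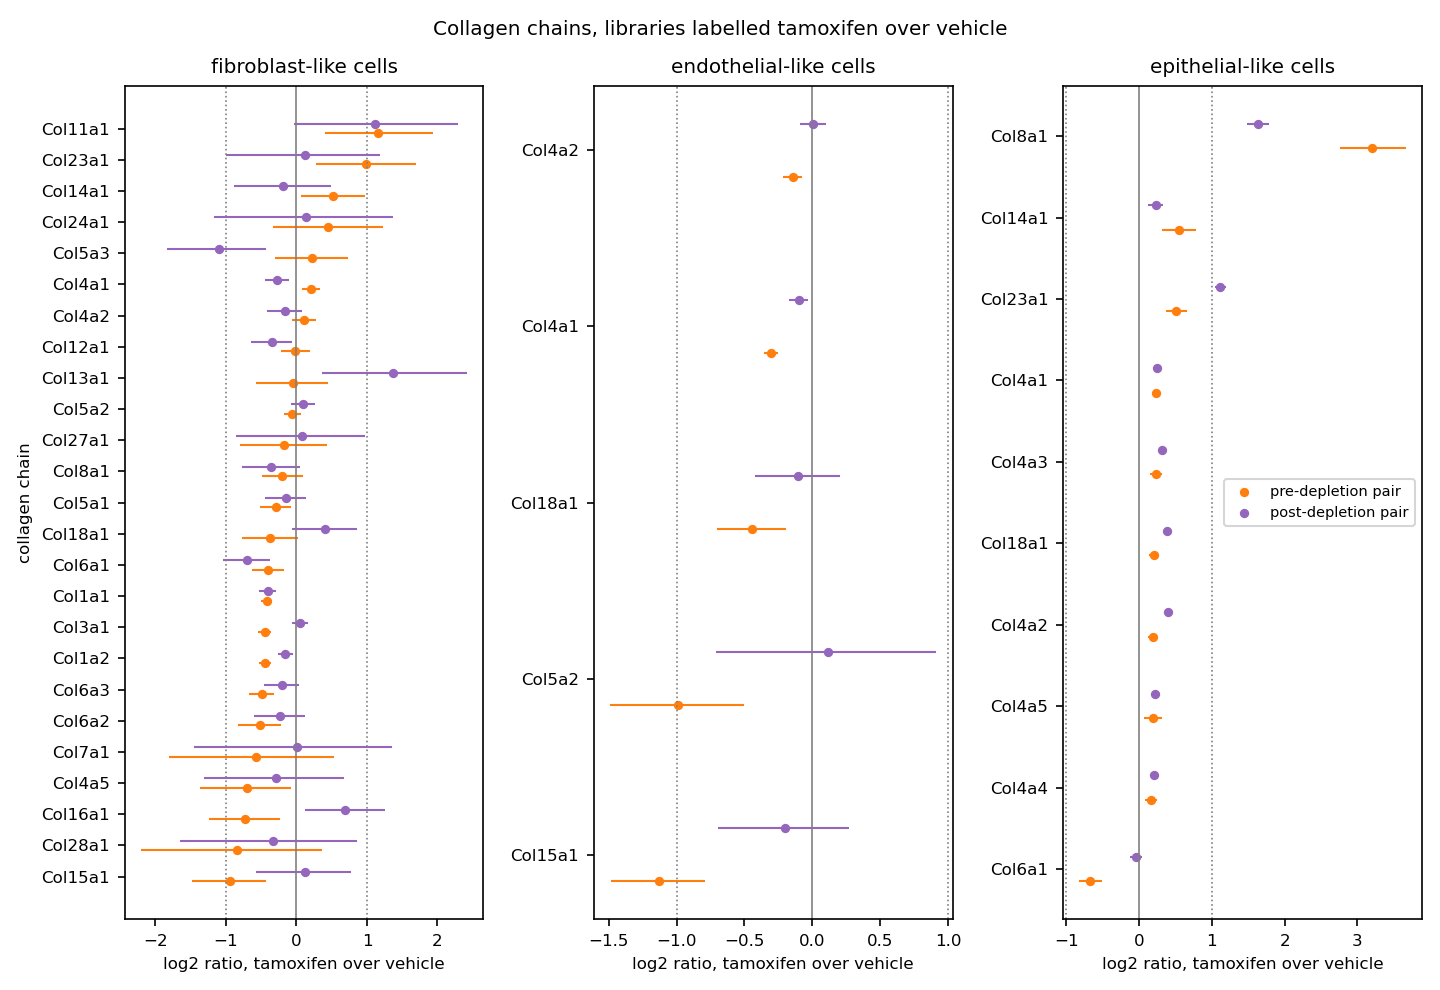
Log2 ratio of each collagen chain with at least 10 CPM in 1 library of each pair, in libraries labelled tamoxifen over vehicle, with no pseudocount, in 1 panel each for fibroblast-, endothelial- and epithelial-like cells, orange points for the pair before and purple points for the pair after depletion, lines for 95% counting intervals and dotted lines at 2-fold. In the epithelial-like panel Col8a1 lies farthest to the right of the 10 chains in both pairs, and most fibroblast chains lie within 2-fold.

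The states that make up the epithelial-like cells differed between the labels, and the class means carry this difference. The Cpe-led state held 3 and 6 cells of the vehicle libraries and 139 and 1151 of the tamoxifen libraries, whereas the Agr2-led state held 51 and 434 against 0 and 0. The Pyy-led state, highest of the states for Col15a1 (32.8 CPM) and next highest for Col8a1 (35.9), held 3 and 12 against 33 and 307. The Spink5-led state, highest for Col23a1 (165 CPM), held 2 and 10 against 39 and 289. The Magi2-led state, highest for Col4a6 (27.2 CPM), held 40 and 311 against 0 and 8. The part of these states in the class ratios was not tested. The Procr-led, Ecrg4-led, Dcn-led and Bex2-led states had 1 marker of a stromal or macrophage class and none of their own among their top 10 genes, which for the Procr-led state was Acta2 of the mural list. Without these 4 states (2999 cells; chosen after seeing the data) the smaller log2 ratio of Col8a1 was 1.92, but the chain no longer met the minimum level in both pairs and was not called. Within states, a chain was compared only where 1 of the 2 libraries reached 10 CPM, so states low in both are left out. Several entries of Col8a1, and all of Col15a1 at 2-fold, reached 10 CPM in the tamoxifen library alone. The counts of states therefore partly follow from the rule, and no share over all features stands beside them. Col8a1 was at least 2-fold higher in the tamoxifen library in 2 of 2 states with enough UMIs before and 3 of 3 after depletion. In the Procr-led state it was 12.4 and 18.6 CPM in vehicle against 115 and 62.6 in tamoxifen libraries, and in the Adarb2-led state 0 and 2.0 against 15.6 and 9.42. The Procr-led state gave 83.0% and 69.6% of the epithelial Col8a1 UMIs in the vehicle libraries and 57.8% and 43.4% in the tamoxifen libraries. Col15a1 was at least 2-fold higher in 2 of 2 states before and 3 of 4 after depletion. Col23a1 was higher in 5 of 6 and in 11 of 11 states, at least 2-fold in 2 and in 5 of them.

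Col23a1 also differed between the labels in alveolar type 1-like cells. It was 7.57 (4.33 to 12.3) and 14.4 (11.6 to 17.8) CPM in the vehicle and 61.1 (50.4 to 73.3) and 98.1 (90.9 to 106) in the tamoxifen libraries. Col8a1 was 0 (at most 1.75) and 3.11 (1.87 to 4.86) CPM against 22.8 (16.5 to 30.8) and 17.2 (14.3 to 20.5). Both were at least 2-fold higher in both pairs, 2 of 10 chains, against 0.72% of 8756 features, and 0 were lower (0.16%). Neither vehicle value of the 2 chains reached either tamoxifen value. With new clusters of cells with at least 1000 genes, 0 of 8 chains were apart, and the smaller log2 ratio was 0.47 for Col23a1 and -0.85 for Col8a1. The 655 type 1-like cells of those clusters held 535 of the Cyp2b10-led but 23 of the Rtkn2-led cells. The 2 type 1-like states were mixed in different proportions, with 19, 162, 66 and 347 Rtkn2-led cells and 92, 309, 36 and 250 Cyp2b10-led cells. In Rtkn2-led cells after depletion Col23a1 was 12.8 CPM in the vehicle and 152 in the tamoxifen library, and in Cyp2b10-led cells 15.5 and 18.0. Before depletion the Cyp2b10-led cells had 9.72 and 33.7 CPM on 16 and 20 UMIs, and the Rtkn2-led cells of the vehicle library were too few to compare. Outside the type 1-like states, the Tff3-led state after depletion had 9.41 CPM of Col23a1 in the vehicle and 65.0 in the tamoxifen library. The difference between the states was not tested. In type 1-like cells Col4a3 was 384 and 333 CPM against 523 and 408 and did not reach 2-fold.

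Of the genes that handle collagen, 59 had enough UMIs in fibroblast-like and 41 in endothelial-like cells. None of the 7 lists had a member at least 2-fold apart in both pairs there. Of all features 0.151 to 0.447% were called in either direction in these classes, so calls among so few genes would be rare. In epithelial-like cells 1 of 42 genes was higher (0.466% of all features compared were) and 1 was lower (1.03%), both from the list of fibril and sheet partners. Dcn, the fibril-binding proteoglycan decorin, was 14.2 and 20.1 CPM in vehicle and 52.5 and 50.8 in tamoxifen libraries, and it is also one of the fibroblast markers. It is the leading gene of an epithelial-like state with 3 and 13 cells in the vehicle and 61 and 323 in the tamoxifen libraries. Nid1 was 13.4 and 12.7 CPM against 4.40 and 4.22. In mural-like cells after depletion 6 of the 54 genes with enough UMIs were lower (P4ha2, Creb3l1, Lox, Dcn, Mrc2 and Timp1), 11.1% where 9.48% of all features were, and Mmp9 was higher, 93.3 against 514 CPM, a gene led by neutrophil-like cells.

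After depletion of CD45- and CD31-positive cells the collagen levels within classes were lower in the median, by less than 2-fold. The median log2 ratio of the chains in the vehicle and tamoxifen pairs was -0.21 and -0.29 in fibroblast-like cells. It was -0.27 and -0.06 in endothelial-like and -0.27 and -0.10 in epithelial-like cells. The medians of all features were -0.08 to -0.02 in the 3 classes. In neither fibroblast-like, endothelial-like nor epithelial-like cells was a chain at least 2-fold apart in both the vehicle and the tamoxifen pair, where 0.571%, 0.379% and 0.034% of features were higher and 0.816%, 0.632% and 0.0907% lower. Single pairs gave Col13a1 in fibroblast-like cells, 83.7 to 21.8 CPM in the vehicle pair with a fold of 0.261 (0.140 to 0.453; 6.29% of features were lower), and Col5a2 in endothelial-like cells, 63.9 to 24.8 CPM with a fold of 0.387 (0.258 to 0.569; 3.42% were lower). In the tamoxifen pair the same chains had folds of 0.698 (0.404 to 1.17) and 0.831 (0.484 to 1.38). The Mfap4-led state, where Col13a1 was highest, was 39 of 55 fibroblast-like cells before and 18 of 65 after depletion in the vehicle pair, and its part in the Col13a1 fold was not tested. Both chains were lower after depletion in the 2 pairs, but only in the vehicle pair by more than counting error.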

How the data were processed

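Dissociated tumour cells were profiled with the 10x 3′ version 3 kit in 4 libraries, per the labels' protocols. The full genotype is not reported here. The authors deposited unnormalised UMI counts per gene and barcode. The file headers name Cell Ranger 7.0.1 as the software behind these counts, and the submitters' processing notes name Cell Ranger 7.2.0 with mm10. Library totals were 104147479, 144994771, 92644997 and 141742060 UMIs over 7658, 7284, 6558 and 7867 barcodes.

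From these counts, barcodes with at least 200 genes, at most 20% mitochondrial UMIs and a Scrublet score of at most 0.25 were kept. The score limit was set after the automatic calls (188, 1, 1 and 0) had not worked. Cells were clustered with scanpy 1.11.5 (Python 3.11.15) on 2000 variable genes without collagens, 40 principal components, 15 neighbours and Leiden resolution 1. Clusters were named from marker lists with 3 markers each in 10% of cells and none of another class outnumbering them among the top 10 genes. One cluster of 513 stromal cells that carried smooth muscle genes was re-clustered, and its sub-clusters were named. Endothelial and epithelial sub-clusters with Ptprc in at least 20% of cells, or with 2 or more markers of another class that outnumbered their own, were set aside (35 endothelial and 395 epithelial cells), and 2 clusters with epithelial markers (1803 cells) stayed unnamed because a mast cell marker was among their leading genes. These steps were chosen after seeing the data. State levels pool the UMIs of all libraries.

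CPM is the gene's UMIs per 1000000 UMIs of the class in a library, with exact Poisson intervals for levels, conditional binomial intervals for folds and Clopper-Pearson intervals for shares, all at 95%. Classes needed 20 cells in a library. A comparison between libraries took genes with 10 CPM in 1 of the 2 libraries and 10 UMIs in both together, and called a change where the ratio with 1 CPM added reached 2-fold. The log2 ratios add 1 CPM, and the folds do not. A chain was assigned to a class where its mean reached 10 CPM and was 2-fold above the next. With 1 library per group no test was made. The scripts were tested on simulated data. Values are given for every chain with a mean of 10 CPM in a named class. Of the pathway lists, the members led by a class with the highest means (up to 3 per list) and those apart between treatments are named, and members that make up a small count are named after their values were seen. Members, lists and rules were chosen with earlier results of these data known. Alternatives changed the normalisation, filters, thresholds, clustering, doublet removal and the libraries used.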

Additional observations from a re-analysis of the deposited data

Results flagged for a closer look

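The treatment difference of 2 chains ran in opposite directions in 2 cell classes of the same libraries. Before depletion, Col15a1 was 2.82 CPM in the vehicle and 10.7 in the tamoxifen library in epithelial-like cells, a log2 ratio of 1.61, and 139 and 63.2 CPM in endothelial-like cells, a log2 ratio of -1.12. The 2 ratios differed by 2.73. After depletion the epithelial ratio was again above 0, while the endothelial levels were 76.4 and 66.4 CPM.

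After depletion, Col8a1 was 4.10 and 12.8 CPM in epithelial-like cells, a log2 ratio of 1.43, and 306 and 133 CPM in mural-like cells, a log2 ratio of -1.19. The 2 ratios differed by 2.63. The mural-like value rests on 26 and 20 cells, and its direction turned without doublet removal and with cells of at least 1000 genes. Neither difference was tested, since each is between single libraries.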

How the results depend on the processing

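Over 35 alternatives, 851 values were computed again. Of the main results 27 moved beyond a set limit and 115 stayed. Of the values of single chains 69 moved, 632 stayed and 8 changed direction. A lead over the next class was counted as a change of direction only for chains assigned to a class. For chains not assigned, the lead fell as low as 0.249-fold (Col8a1) and 0.645-fold (Col4a6) without being counted. No paired analysis was possible because each group has 1 library, and for the same reason no replicate could be left out. The counts of stromal chains (23), of chains apart after depletion (0) and of type 1-like chains (3) and the Col4a1 to Col4a2 ratio held within 1.5 times, or within counting error, wherever they were computed again. That limit is wide for a count of 3, and Col12a1 lost its type 1-like call where the states were drawn at another clustering resolution.

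In fibroblast-like cells the 1 chain apart became 0 with the mean over cells' CPM, a pseudocount of 10 CPM, a 4-fold rule or no doublet removal, 2 with no minimum level, 3 in the pair after depletion alone and 7 with cells of at least 1000 genes, where 1 pair had enough cells. It was also 0 under 2 alternatives chosen after seeing the data, without the cell with the most UMIs and with the unnamed stromal cells counted as fibroblast-like. Col11a1 turned to a log2 ratio of -0.126 without that cell and to -0.310 without doublet removal. In mural-like cells the 4 chains became 11 with no minimum level, 8 at 1.5-fold, and 1 at 4-fold or with cells of at least 1000 genes. Col8a1 turned there to 0.269 without doublet removal and 0.259 with at least 1000 genes. The 0 endothelial chains became 1 with no minimum or in the pair before depletion alone. The 1 epithelial chain became 0 with a pseudocount of 10 CPM, at 4-fold, without doublet removal or without the 4 states led by another class's marker (chosen after seeing the data), 2 with no minimum, 3 in the pair before and 2 in the pair after depletion alone. The 2 type 1-like chains became 0 with at least 1000 genes, where Col8a1 turned to -0.854.

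With the libraries before depletion alone, 25 chains and 39 pathway genes (12 and 22 over all libraries) were led by 1 class, with no mural- or mesothelial-like class of enough cells. The lead of Col15a1 in mural-like cells became 0.701-fold with unnamed stromal cells added (chosen after seeing the data), 0.659 with collagens kept in the clustering and 0.579 with a doublet score of at most 0.15. The share of type 1-like cells with a Col4a3 UMI, 43.8% over all libraries, was 26.9% when thinned to 1000 UMIs and 78.7% unthinned. Apart from pairs or classes left with too few cells, the cause was not tested. Levels in mural-like cells, and those of chains below 10 CPM in small classes, are limited by few cells, and no interval covers the spread between animals.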
